A study of Mus musculus with 4 samples.

Results

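The genes described here are 33 genes of glucose uptake, glycolysis, lactate handling and the hypoxia response, measured in cultured mouse peritoneal macrophages. They were taken by gene symbol from an array that carries 30222 gene names, and all 33 were present. Pyruvate kinase appears under its older symbol Pkm2. The genes were represented by 57 probes, and where a gene had several, the brightest one (by its mean level over the 4 arrays) stands for it.

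The study collected resident macrophages of the abdominal cavity from C57BL/6-background mice that were wild type or lacked CD163, the scavenger receptor through which macrophages clear haptoglobin-haemoglobin complexes. Cells of both genotypes were kept for 2 days in medium with serum. LPS (lipopolysaccharide, the endotoxin of Gram-negative bacterial walls) was then given to some at 100 ng/mL, and RNA was taken 1 day later from cells with and without it. Untreated wild-type, LPS-treated wild-type, untreated CD163-deficient and LPS-treated CD163-deficient cells make up the 4 groups, with 1 Agilent array hybridised for each, and values of 4 arrays are given in that order. No replicate exists, so each difference is between single arrays, without a test or a replicate error. The labels used here give neither the deleted part of Cd163 nor the number, sex or age of the mice.

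Glycolysis splits glucose to pyruvate in the cytosol, and lactate dehydrogenase turns pyruvate into lactate, which monocarboxylate transporters carry out of the cell. Hypoxia-inducible factor 1 (HIF-1) is a transcription factor whose alpha subunit is marked for destruction by prolyl hydroxylases when oxygen is present. It drives many genes of glucose uptake and glycolysis, and macrophages stimulated with LPS are known for raised glycolysis in which HIF-1 alpha takes part.

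Levels are log2 processed intensities minus the 75th percentile of the same array, so that 0 is the 75th percentile and 1 unit is a 2-fold difference. They compare arrays for 1 probe and not 1 gene with another. A probe is called detected when its spots were well above background. The 75th percentile intensity ranged from 909.6 to 1325 over the arrays, between 24721 and 26535 genes were detected, and no spot was saturated. Probes printed 10 times had a median SD of 0.10 to 0.12 (log2) between spots, which covers only error within an array. The 90th percentile of this SD was 0.51 to 0.61 over the arrays, so some probes were much noisier than the median. The 1 probe of Cd163 (chr6:124270436-124270495 in mm9) read -5.47 in untreated wild-type cells, -5.01 in LPS-treated wild-type cells, -6.0 in untreated CD163-deficient cells and -5.48 in LPS-treated CD163-deficient cells. The probe was called detected on all 4 arrays, both of the deficient cells included, at readings near the floor, and the genotypes differed by -0.53 without LPS and -0.47 with it. Cd163 itself therefore gives little check of the genotype labels. All 10 macrophage markers were detected and above the 75th percentile on every array. All 9 LPS response genes, among them Il1b and Nos2, were at least 2-fold higher with LPS in both genotypes.

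Of the 33 genes, 32 were detected on all 4 arrays, Pdk4 being the exception. Among the 32, 20 were higher with LPS in both genotypes, 7 were lower in both, and 5 differed in direction (Gpi1, Pfkp, Aldoa, Egln1 and Vegfa). These counts over both genotypes have no share over all genes beside them, so they are not read against other genes. In wild-type cells the sign of Gpi1, Pfkp and Aldoa turned when arrays were scaled to the median of detected probes. That of Pfkp also turned with normexp background correction, and that of Aldoa with quantile normalization and the deposited value table. In deficient cells the sign of Gpi1 turned with that scaling, quantile normalization and the value table, and that of Vegfa with the mean of all probes. Taken pair by pair, 23 of the 33 genes were higher with LPS in each genotype. Of all genes compared, 13495 of 26714 were higher in the wild type and 13980 of 26185 in the deficient cells. The median log2 difference with LPS was 0.59 in the wild type and 0.44 in the deficient cells over the 33 genes, against 0.0059 and 0.035 over all genes compared. In wild type 7 of the 33 genes (21.2%) were at least 2-fold higher with LPS, where 6.43% of the 26714 genes compared were. In the same pair 4 (12.1%) were at least 2-fold lower, against 5.09% of all genes. In CD163-deficient cells 10 (30.3%) were at least 2-fold higher, against 7.24% of 26185 genes, and 2 (6.06%) were at least 2-fold lower, near the 5.5% of all genes. A mean level of 0 or more was found for 26 of the 33 genes, of which 23.1% and 38.5% were at least 2-fold higher. Among other genes at such a level the shares at least 2-fold higher were 8.71% and 9.6%.

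Scaling the arrays to the median of their detected probes, in place of the 75th percentile, moved the median of all genes from 0.0059 to 0.30 in the wild type and from 0.035 to -0.11 in CD163-deficient cells. The split of the 33 genes at 2-fold then became 11 higher and 2 lower in wild type, and 8 higher and 4 lower in CD163-deficient cells. Over all genes the same scaling gave 10.5% higher and 2.98% lower in wild type, and 5.89% and 7.17% in CD163-deficient cells. Under all settings tried, 4 genes stayed at least 2-fold higher with LPS in both genotypes (Slc2a6, Pfkfb3, Pfkl and Pdk3) and 2 stayed at least 2-fold lower (Aldoc and Ldhb).

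**Figure D1:**
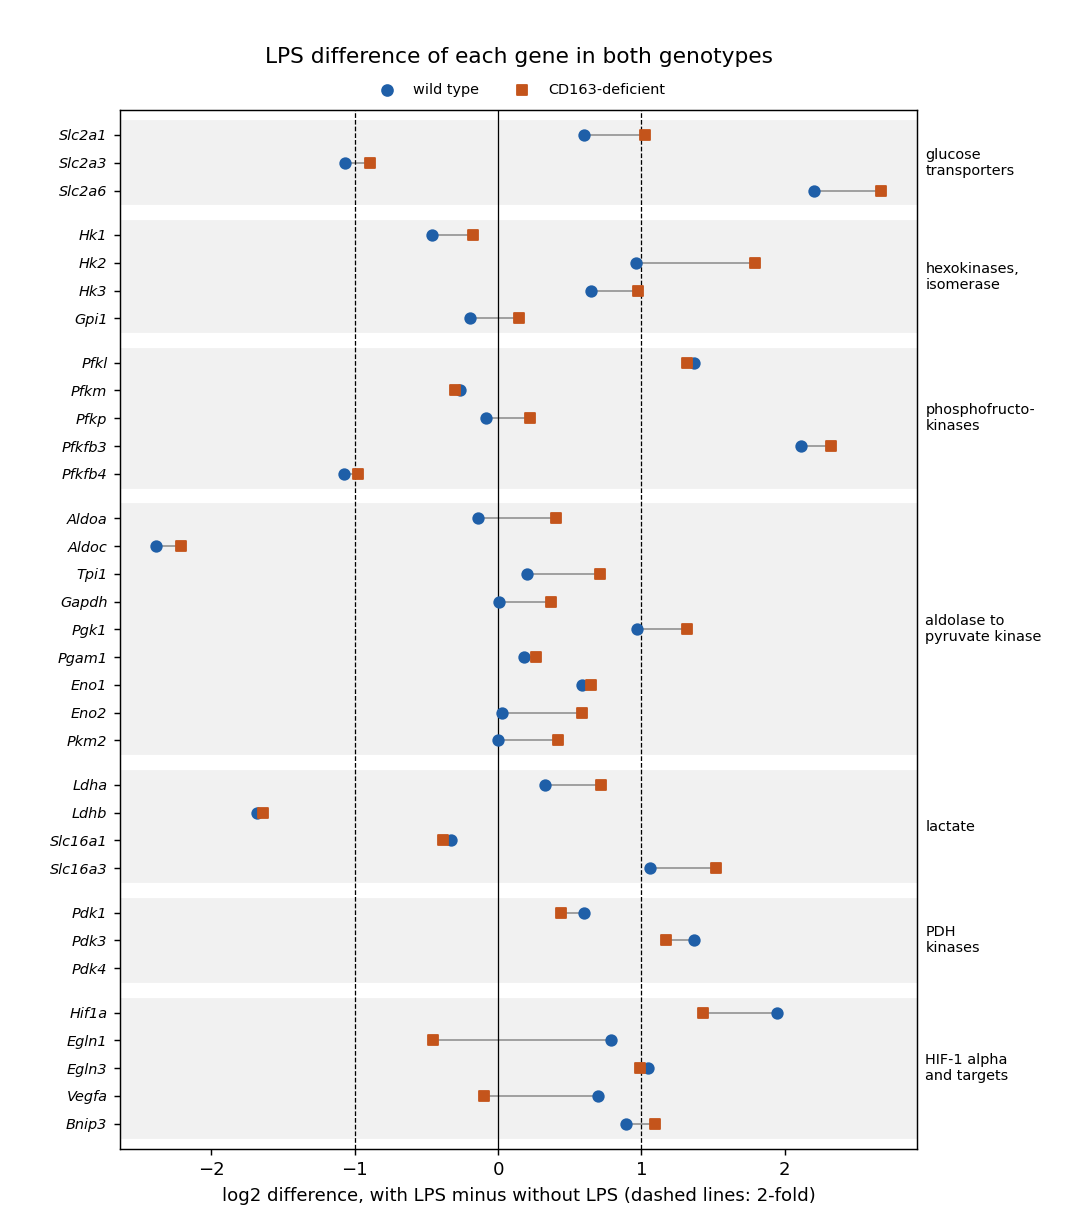
Log2 difference between the array with LPS and the array without it (x axis) for each gene (rows, by role), with circles for wild type and squares for CD163-deficient cells, 1 array per group and no error bars. Slc2a6 and Pfkfb3 lie farthest to the right and Aldoc and Ldhb farthest to the left in both genotypes. Pdk4, not detected on every array, has no point.

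The promoters of Slc2a6, Pfkfb3, Aldoc and Ldhb, at both ends of this range, are shown with that of Ldha, which lies within it and is a textbook HIF-1 target, because HIF-1 binds a short hypoxia response core, here searched as ACGTG or GCGTG on both strands. Sequences are the 250 bases before the outermost RefSeq transcription start in build GRCm38.p6, written 5′ to 3′ on the strand of the gene, and capitals mark the core or its reverse complement. Where cores on both strands overlap, as in CACGTG, each strand was counted. Slc2a6 lies at chr2:27027999-27028248 (minus strand), Pfkfb3 at chr2:11553930-11554179 (minus strand), Ldha at chr7:46845554-46845803 (plus strand), Aldoc at chr11:78322823-78323072 (plus strand) and Ldhb at chr6:142507958-142508207 (minus strand). The first 3 genes were higher with LPS in both genotypes, and Aldoc and Ldhb were lower.
Slc2a6: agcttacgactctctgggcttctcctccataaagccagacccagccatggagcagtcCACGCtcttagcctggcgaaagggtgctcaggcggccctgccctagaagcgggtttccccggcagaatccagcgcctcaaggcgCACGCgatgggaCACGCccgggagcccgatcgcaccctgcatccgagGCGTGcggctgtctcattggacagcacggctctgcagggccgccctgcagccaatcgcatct
Pfkfb3: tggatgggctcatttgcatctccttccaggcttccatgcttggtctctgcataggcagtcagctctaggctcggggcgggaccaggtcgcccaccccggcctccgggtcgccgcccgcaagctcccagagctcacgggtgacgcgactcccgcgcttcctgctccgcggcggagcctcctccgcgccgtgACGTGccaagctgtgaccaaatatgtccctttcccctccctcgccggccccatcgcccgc
Ldha: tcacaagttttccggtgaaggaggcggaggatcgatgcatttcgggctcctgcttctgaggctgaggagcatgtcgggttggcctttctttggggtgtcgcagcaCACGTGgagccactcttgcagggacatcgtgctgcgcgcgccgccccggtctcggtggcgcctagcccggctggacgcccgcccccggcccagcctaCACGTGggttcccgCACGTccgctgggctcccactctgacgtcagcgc
Aldoc: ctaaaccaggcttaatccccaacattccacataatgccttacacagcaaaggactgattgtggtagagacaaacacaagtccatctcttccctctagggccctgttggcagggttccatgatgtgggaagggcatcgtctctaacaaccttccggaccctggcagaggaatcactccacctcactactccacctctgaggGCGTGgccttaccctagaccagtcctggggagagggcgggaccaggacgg
Ldhb: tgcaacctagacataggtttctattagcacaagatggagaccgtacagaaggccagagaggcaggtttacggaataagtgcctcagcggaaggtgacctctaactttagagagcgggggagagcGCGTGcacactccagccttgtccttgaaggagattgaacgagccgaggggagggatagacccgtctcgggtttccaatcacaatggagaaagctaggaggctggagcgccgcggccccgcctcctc

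The Ldha window held 5 cores, counted over both strands, the Slc2a6 window 4, and the other windows shown 1 each. These numbers depend on the start taken, as a window at an inner start held 3 cores for Pfkfb3 and 1 for Ldha. A promoter entry existed for 32 of the 33 genes, Slc2a3 being without one, and 29 of these (90.6%) held a core in at least 1 of their windows, against 41.5% of 27025 genes in the table. Per window the shares were 37 of 46 (80.4%) and 38.6% of 32851. Promoters of the 33 genes had a median of 14 CpG, where all promoters had 6, and both cores contain a CpG. Among windows with at least 14 CpG, 91.7% of 24 held a core for these genes and 67.2% of 9622 for other genes. The 3 genes with no core in any window were Eno2, Gpi1 and Tpi1. All 6 genes at least 2-fold higher with LPS in both genotypes held a core, and so did both that were at least 2-fold lower. The NF-kB consensus was found for 3 of the 32 genes (9.38%; Pfkm, Pgk1 and Vegfa), where 8.23% of all genes had it. A match describes these letters only and does not show binding.

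Glucose transporters came first in the pathway and differed among themselves. Slc2a6 (GLUT6, a facilitative hexose transporter) had levels of 3.23 in untreated wild-type cells, 5.44 in LPS-treated wild-type cells, 3.32 in untreated CD163-deficient cells and 5.99 in LPS-treated CD163-deficient cells. Both arrays with LPS lay far above both without it, 4.62-fold higher in the wild type and 6.37-fold in the deficient cells. The dimmer second probe of Slc2a6 gave log2 differences of 2.37 and 2.73, close to the 2.21 and 2.67 of the brightest one.

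Slc2a1 (GLUT1, the basal glucose transporter of many cells) read 2.38 in untreated wild-type cells, 2.98 in LPS-treated wild-type cells, 1.93 in untreated CD163-deficient cells and 2.96 in LPS-treated CD163-deficient cells. The arrays with LPS were nearly equal, and the 2 without it differed by -0.45, so the LPS difference was 0.60 in the wild type and 1.03 in the deficient cells. Slc2a3 (GLUT3, a transporter of high affinity) was dim and went the other way. Its levels were -2.84 and -3.91 in wild type without and with LPS, and -3.62 and -4.51 in CD163-deficient cells, a difference of -1.06 and -0.89. With normexp background correction the difference in deficient cells was -0.44.

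**Figure D2:**
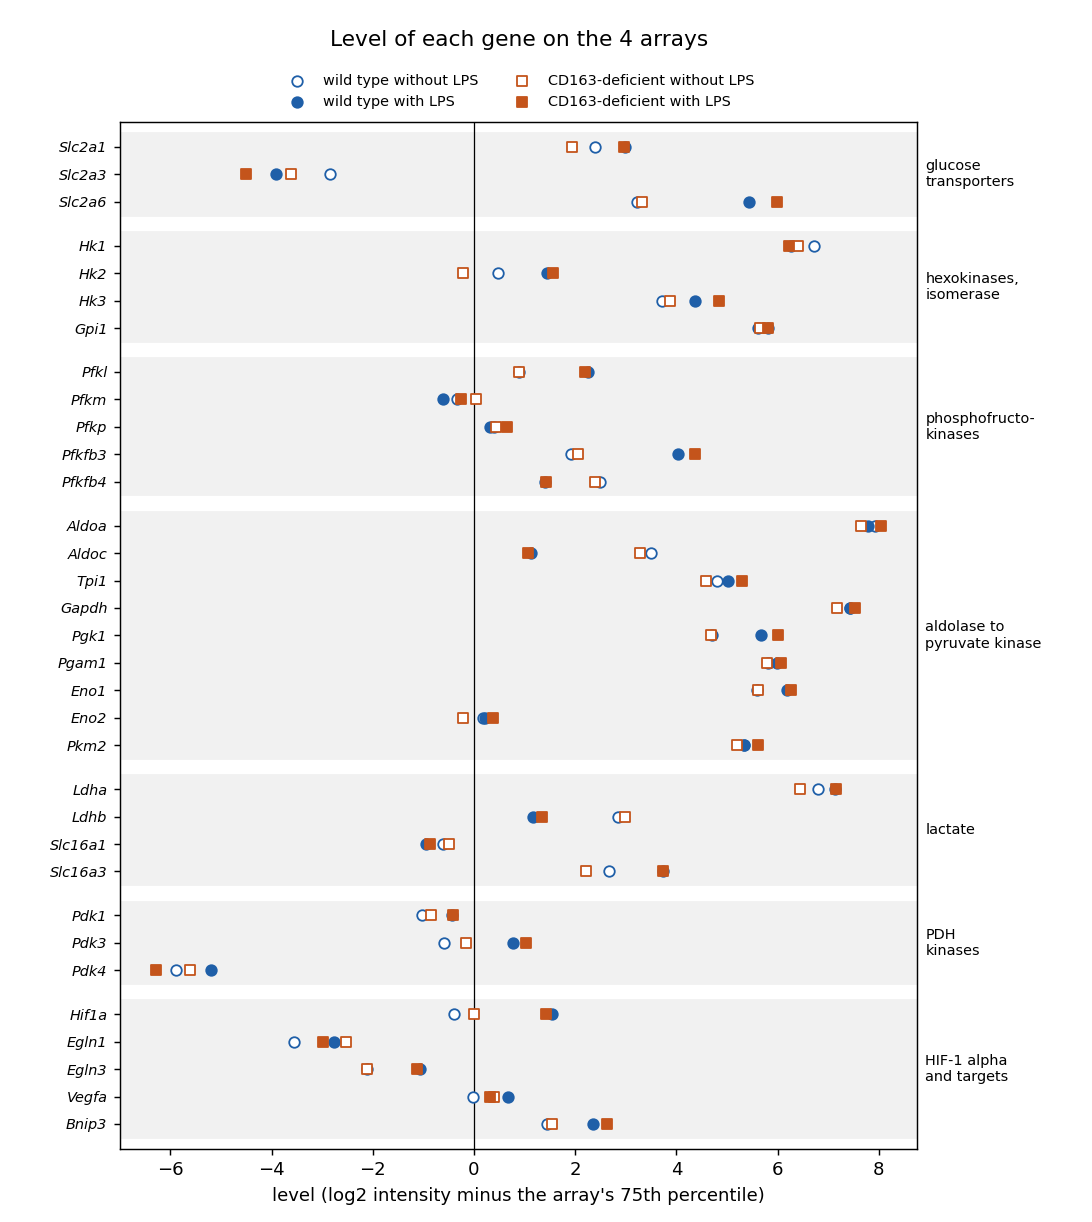
Level of each gene (rows, by role) on the 4 arrays, as log2 intensity minus the 75th percentile of the array (x axis), with open symbols for arrays without LPS, filled ones for arrays with LPS, circles for wild type and squares for CD163-deficient cells. For Slc2a6, Pfkl, Pfkfb3, Pdk3 and Hif1a both filled symbols lie to the right of both open ones, for Aldoc and Ldhb to the left. Levels of different genes come from different probes and cannot be ranked against each other.

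Hexokinases trap glucose in the cell as glucose 6-phosphate. Hk2, the inducible form, had levels of 0.49 in untreated wild-type cells, 1.45 in LPS-treated wild-type cells, -0.22 in untreated CD163-deficient cells and 1.57 in LPS-treated CD163-deficient cells. It was higher with LPS by 0.96 in the wild type and 1.79 in the deficient cells, and the wider gap in the latter came with a lower starting level (-0.71 against wild type) and nearly equal levels with LPS (0.12). Hk3 (a hexokinase of blood cells) was higher by 0.65 and 0.97, from 3.71 to 4.36 in the wild type and from 3.87 to 4.85 in CD163-deficient cells.

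Hk1, the constitutive form, did not follow. Its brightest probe read 6.73, 6.27, 6.40 and 6.23 on the 4 arrays. That probe is placed on chromosome 5 (chr5:22118404-22118463, mm9), while the gene lies on chromosome 10. The 2 probes placed on chromosome 10 gave LPS differences of -0.24 and -0.16 in the wild type and 0.39 and 0.18 in the deficient cells, where the brightest gave -0.46 and -0.17. The sign in CD163-deficient cells therefore depends on the probe. Gpi1, which turns glucose 6-phosphate into fructose 6-phosphate, had levels of 5.81 and 5.62 in the wild type and 5.66 and 5.81 in the deficient cells, without and with LPS. Its difference was -0.19 in the wild type and 0.15 in the deficient cells, and all 3 probes gave these signs.

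Phosphofructokinase commits sugar to glycolysis, and the bifunctional PFKFB enzymes set the level of its activator fructose 2,6-bisphosphate. Pfkfb3, an isoform with high kinase activity, read 1.93 in untreated wild-type cells, 4.04 in LPS-treated wild-type cells, 2.05 in untreated CD163-deficient cells and 4.37 in LPS-treated CD163-deficient cells. It was 4.32-fold higher with LPS in the wild type and 5.01-fold higher in the deficient cells. The second, dimmer probe gave log2 differences of 1.52 and 2.11. Pfkfb4, the related isoform, was lower with LPS. Its levels were 2.48 and 1.41 in the wild type and 2.40 and 1.42 in the deficient cells, without and with LPS, so the difference of -1.08 crossed the 2-fold line and that of -0.97 did not. Its second probe was not detected on any array.

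The phosphofructokinase subunits differed in the same cells. Pfkl, the liver-type subunit, had levels of 0.89, 2.25, 0.88 and 2.20 on the 4 arrays. The genotypes differed by -0.01 without LPS and by -0.05 with it, and LPS added 1.37 and 1.32. Pfkm, the muscle-type subunit, had 10 spots on each array, with an SD of 0.06 to 0.10 between spots, and read -0.34 and -0.60 in the wild type and 0.04 and -0.26 in the deficient cells. Its LPS difference of -0.27 and -0.30 thus exceeds the error within an array, while the spread between cultures is not known, and in wild type it turns to 0.02 when arrays are scaled to the median of detected probes. Pfkp, the platelet-type subunit, differed by -0.08 in the wild type and 0.22 in the deficient cells.

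Over the 9 genes from aldolase to pyruvate kinase the median LPS difference was 0.03 for the wild type and 0.42 for the deficient cells, with Aldoc (-2.38), Pgk1 (0.97) and Eno1 (0.59) far from it in wild type. Aldoa, the main aldolase of most cells, read 7.93 in untreated wild-type cells, 7.79 in LPS-treated wild-type cells, 7.64 in untreated CD163-deficient cells and 8.05 in LPS-treated CD163-deficient cells. The 4 levels lay close together, and the LPS difference was -0.14 in the wild type and 0.40 in the deficient cells. Pkm2 (pyruvate kinase) had levels of 5.33 and 5.33 in the wild type and 5.20 and 5.62 in the deficient cells. Tpi1 (triose phosphate isomerase) read 4.81, 5.02, 4.58 and 5.29 on the 4 arrays and was higher by 0.20 and 0.71. Pgam1 (phosphoglycerate mutase) read 5.81, 5.99, 5.80 and 6.06 and was higher by 0.18 and 0.26. On this scale, for each of these 4 enzymes, the untreated deficient cells gave the lowest level and the LPS-treated deficient cells the highest.

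Aldoc, an aldolase isozyme best known from brain, differed most of the 33 genes in the downward direction in both genotypes. Its levels were 3.50 in untreated wild-type cells, 1.12 in LPS-treated wild-type cells, 3.29 in untreated CD163-deficient cells and 1.07 in LPS-treated CD163-deficient cells. Both arrays with LPS were far below both without it, 5.22-fold lower in the wild type and 4.63-fold lower in the deficient cells. Aldoc has 1 probe (chr11:78140198-78140257, mm9).

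Gapdh, glyceraldehyde 3-phosphate dehydrogenase, is often used as a reference gene and had 8 probes, each higher with LPS in both genotypes. The brightest read 7.42, 7.43, 7.17 and 7.54 on the 4 arrays, a difference of 0.01 in the wild type and 0.37 in the deficient cells. It is placed on chromosome 7 (chr7:59003199-59003257, mm9), outside the gene, which lies on chromosome 6. The 5 probes placed on chromosome 6 gave 0.28 to 0.73 in wild type and 0.78 to 1.19 in CD163-deficient cells. A second probe off the gene is placed on chromosome 8 and another on chromosome X. Gapdh has many processed pseudogenes, and which copy each probe read was not tested.

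The single probes of Pgk1 and Eno1 are also placed off the gene. Pgk1 (phosphoglycerate kinase, on chromosome X) is represented at chr3:57906830-57906894 and read 4.71, 5.68, 4.69 and 6.01 on the 4 arrays. LPS added 0.97 in the wild type and 1.32 in the deficient cells, with the genotypes nearly equal before LPS. Eno1 (enolase, on chromosome 4) is represented at chr2:80678866-80678925, read 5.60, 6.18, 5.61 and 6.26, and was higher by 0.59 and 0.65. Values of both are of the probe named Pgk1 or Eno1 on the array. Eno2, the enolase isozyme of neurons, read 0.19 and 0.21 in the wild type and -0.21 and 0.38 in the deficient cells.

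**Figure D3:**
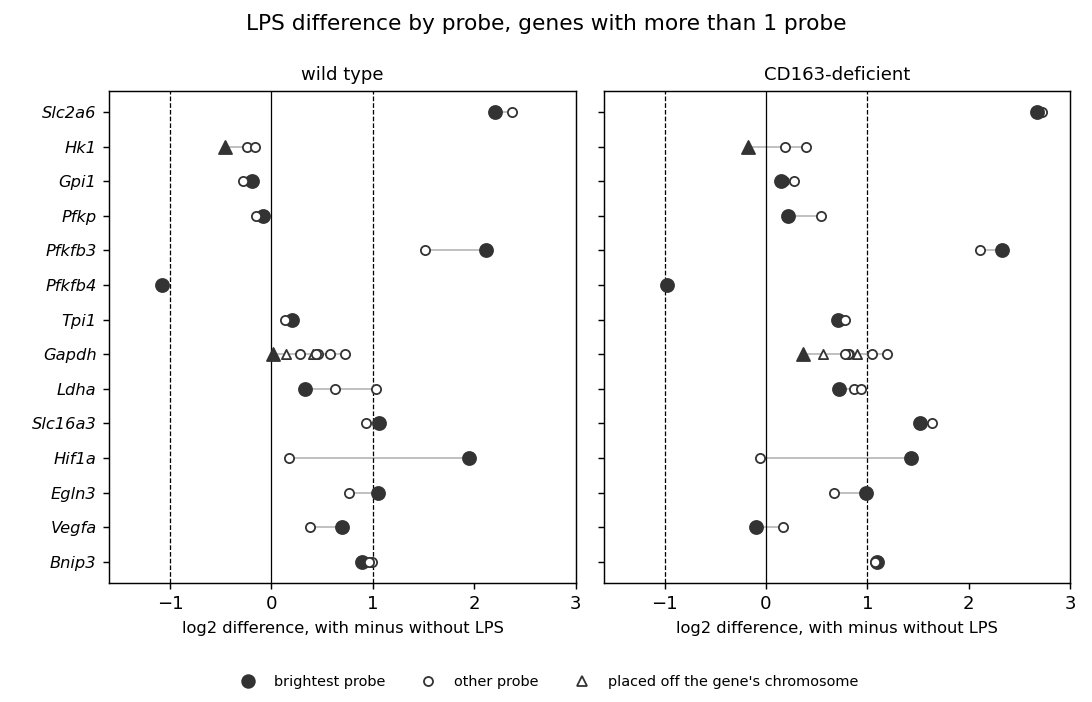
Log2 difference with minus without LPS (x axis) of each probe detected on all 4 arrays, for the genes with more than 1 probe (rows), in wild type (left panel) and CD163-deficient cells (right panel). Large filled symbols are the brightest probe, open ones the others, and triangles probes placed on another chromosome than the gene. Probes of 1 gene lie on the same side of 0 in wild type, while in CD163-deficient cells those of Hk1, Hif1a and Vegfa do not.

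The lactate dehydrogenase subunits went apart. Ldha, which favours lactate formation, read 6.80, 7.13, 6.44 and 7.15 on the 4 arrays. It was higher by 0.33 and 0.72, and its 2 dimmer probes gave 1.03 and 0.63 in the wild type and 0.87 and 0.94 in the deficient cells. Ldhb, which favours the return to pyruvate, read 2.84, 1.17, 2.99 and 1.35 on the 4 arrays. It was 3.20-fold lower with LPS in the wild type and 3.11-fold lower in the deficient cells, so both arrays with LPS lay below both without it.

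Slc16a3 (MCT4, the lactate exporter of glycolytic cells) had levels of 2.67 in untreated wild-type cells, 3.73 in LPS-treated wild-type cells, 2.22 in untreated CD163-deficient cells and 3.74 in LPS-treated CD163-deficient cells. It was higher by 1.06 and 1.52, with a second probe at 0.93 and 1.63. Slc16a1 (MCT1, which carries lactate in either direction) differed by -0.33 and -0.38. The pair of transporters thus differed in direction on the same arrays, as the pair of dehydrogenase subunits did, but Slc16a1 stayed within 2-fold. Its wild-type difference was -0.04 when arrays were scaled to the median of detected probes. Reference genes such as Actb and Ppia were lower with LPS in 11 of 11 cases in wild type (median -0.41). In the deficient cells 7 of them were lower and 4 higher (median -0.22).

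Pyruvate dehydrogenase kinases inhibit pyruvate dehydrogenase, which turns pyruvate into acetyl-CoA for the tricarboxylic acid cycle. Pdk3 read -0.59 in untreated wild-type cells, 0.78 in LPS-treated wild-type cells, -0.15 in untreated CD163-deficient cells and 1.02 in LPS-treated CD163-deficient cells, which is 2.58-fold and 2.25-fold higher with LPS. Pdk1 was higher by 0.60 and 0.44. Pdk4 was near the floor, detected in wild type with LPS and in CD163-deficient cells without LPS and not well above background on the other 2 arrays. Against the floor it was at least 1.47-fold higher with LPS in wild type and at least 1.1-fold lower with LPS in CD163-deficient cells. Both directions turned with normexp background correction, where the log2 differences were -0.18 and 0.02. A bound takes the undetected array at the higher of its own level and the lowest detected level of that array.

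Hif1a, which encodes HIF-1 alpha, read -0.40 in untreated wild-type cells, 1.55 in LPS-treated wild-type cells, -0.01 in untreated CD163-deficient cells and 1.42 in LPS-treated CD163-deficient cells. That is 3.85-fold higher with LPS in the wild type and 2.69-fold higher in the deficient cells. A dimmer second probe, from another transcript record and placed elsewhere on chromosome 12, gave 0.18 and -0.06, so the gain was seen by 1 of 2 probes. Bnip3, a mitophagy receptor induced in hypoxia, read 1.45, 2.35, 1.54 and 2.63 on the 4 arrays, and its 3 probes gave 0.90 to 0.99 in wild type and 1.08 to 1.1 in CD163-deficient cells.

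Of the prolyl hydroxylases, Egln3 (PHD3, itself induced by HIF) was higher by 1.05 and 0.99, from -2.12 to -1.07 in the wild type and from -2.12 to -1.13 in CD163-deficient cells. Egln1 (PHD2, the main oxygen sensor of the family) was dim, with -3.55 in untreated wild-type cells, -2.76 in LPS-treated wild-type cells, -2.53 in untreated CD163-deficient cells and -2.98 in LPS-treated CD163-deficient cells. The wild-type array without LPS was the lowest. The LPS difference was 0.79 in the wild type and -0.46 in the deficient cells. Vegfa, an angiogenic growth factor, read -0.02, 0.67, 0.40 and 0.31 on the 4 arrays, which is 0.69 higher in the wild type and -0.10 in the deficient cells. Its dimmer probe gave 0.38 and 0.17.

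Between genotypes few of the 33 genes reached 2-fold. Without LPS, CD163-deficient minus wild type had a median of -0.006 over the 33 genes and -0.06 over all 25958 genes, and 29 of the 32 genes detected on all arrays differed by under 0.5. Egln1 was the 1 gene at least 2-fold higher, by 1.03, where 1.3% of all genes were, and 0 were at least 2-fold lower, against 1.16%. Egln1 is dim, and with normexp background correction its difference was 0.49. Next in size without LPS were Slc2a3 (-0.78) and Hk2 (-0.71).

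With LPS the median was 0.08 over the 33 genes and 0.0047 over all 26703 genes. None of the 33 was counted at 2-fold in either direction, where 1.25% of all genes were higher and 1.09% lower. Pdk4, not detected in LPS-treated CD163-deficient cells, measured -1.08, and its bound there is at least 1.46-fold lower. Of the 32 genes detected on all arrays, 30 differed by under 0.5. The exceptions were Slc2a3 (-0.60) and Slc2a6 (0.56). Slc2a3 is dim, and with normexp background correction its difference was -0.25. The sign of the genotype difference was the same without and with LPS for 17 of the 32 genes. The counts under 0.5 and of equal sign have no share over all genes beside them, so they are not read against other genes.

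**Figure D4:**
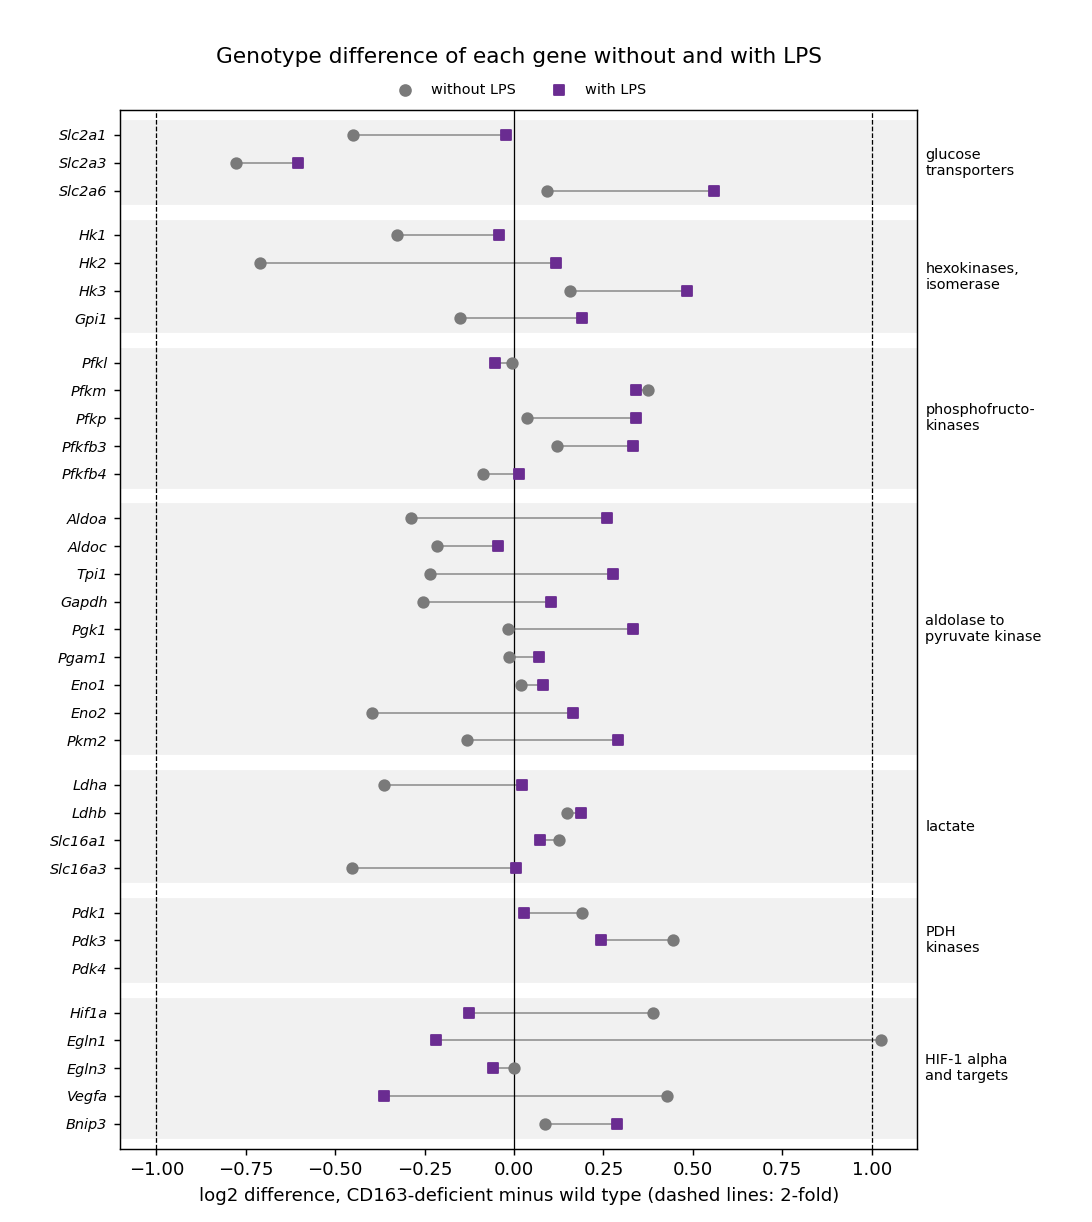
Log2 difference between CD163-deficient and wild-type cells (x axis) for each gene (rows, by role), with circles for the arrays without LPS and squares for those with LPS, 1 array per group. Most points lie between -0.5 and 0.5, and Egln1 without LPS is the 1 point past a dashed 2-fold line. Pdk4, not detected on every array, has no point.

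The LPS response of CD163-deficient cells minus that of wild type uses all 4 arrays. It was above 0 for 23 of 32 genes, with a median of 0.21. Of 23936 genes, 14321 were above 0, with a median of 0.08. At a mean level of 0 or more, 22 of 26 of these genes were above 0 (median 0.31), and 5586 of 8158 other genes (median 0.15). None of the 32 was at least 2-fold higher, where 1.51% of all genes were, and 1 was at least 2-fold lower (Egln1, -1.24), against 2.28%. All 9 genes from aldolase to pyruvate kinase were above 0, with a median of 0.36. Hk2 had the largest positive value (0.83), followed by Eno2 (0.56) and Aldoa (0.55).

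Some other lists of genes were also mostly above 0. Reference genes such as Actb and Ppia were above 0 in 11 of 11 cases, with a median of 0.32, and nuclear-encoded respiratory chain genes in 41 of 43, with a median of 0.40. Macrophage markers were above 0 in 5 of 10 cases (median 0.05) and genes of pyruvate entry and the tricarboxylic acid cycle in 18 of 33 (median 0.06). The part of brightness in these values was not tested. In untreated cells all 11 reference genes were lower without CD163, with a median of -0.25, and 39 of 43 respiratory chain genes were lower. When arrays were scaled to the median of detected probes, the median of the 32 genes became -0.23 and that of all genes -0.35. With quantile normalization the medians were 0.035 and 0.047. The size and direction of the median of the 32 genes thus rest on the scaling, and the median of all genes moved with it. Whether the glycolytic genes differ in this from the other lists was not tested.

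**Figure D5:**
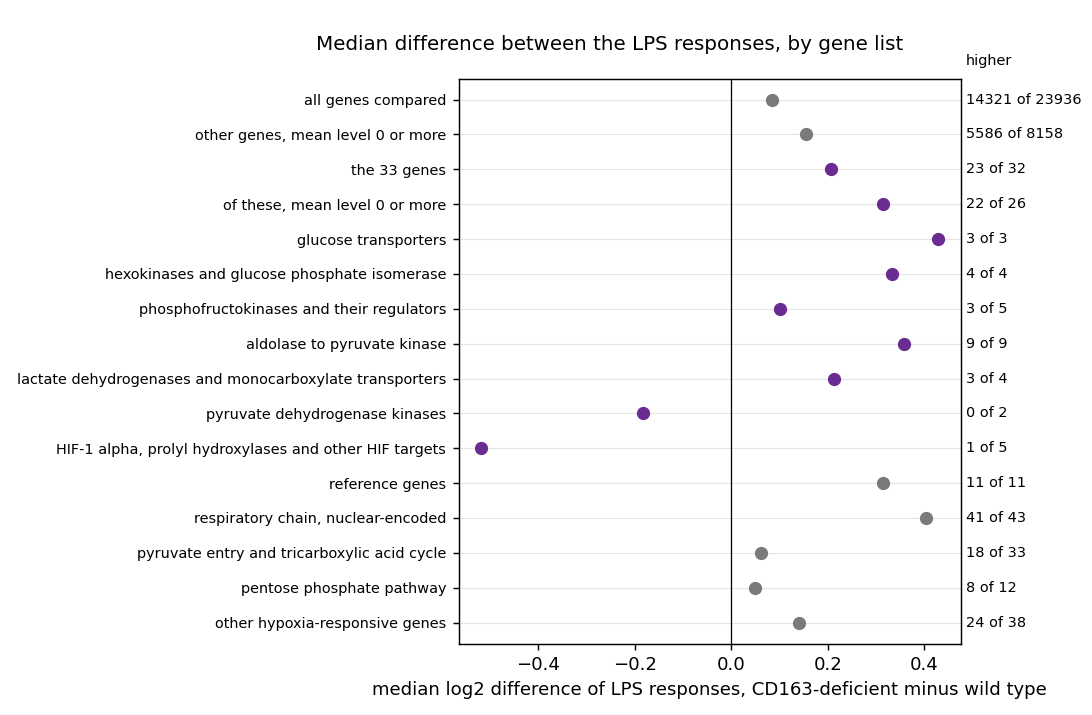
Median log2 difference between the LPS responses of CD163-deficient and wild-type cells (x axis) for gene lists (rows), with the number of genes above 0 of those compared at the right. The lists from aldolase to pyruvate kinase (0.36), reference genes (0.32) and respiratory chain (0.40) lie together, and the HIF-1 alpha group (-0.52) lies on the other side of 0.

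Genes around the pathway were read from lists written beside the 33 genes. For these lists too, the shares of all genes with LPS are 6.43% at least 2-fold higher and 5.09% lower in wild type. In CD163-deficient cells they are 7.24% and 5.5%. Of 15 HIF pathway regulators, 1 was at least 2-fold higher and 1 lower with LPS in wild type, and 0 and 2 in CD163-deficient cells. Epas1, which encodes HIF-2 alpha, read 4.47 in untreated wild-type cells, 0.84 in LPS-treated wild-type cells, 4.01 in untreated CD163-deficient cells and -0.42 in LPS-treated CD163-deficient cells. It differed by -3.62 and -4.43, opposite in direction to Hif1a. Ep300, a coactivator of HIF, differed by 1.14 in the wild type and -0.30 in the deficient cells, and Cited2, which competes for it, by -0.57 and -1.09.

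Other hypoxia-responsive genes were mixed. Of 40, 6 (15.0%) were at least 2-fold higher and 5 (12.5%) lower in wild type, and 7 (17.5%) and 5 (12.5%) in CD163-deficient cells. Among those higher were Ero1l, an oxidase of protein folding (2.48 and 1.58), Lox, a collagen crosslinker (1.75 and 1.48), and Hmox1, haem oxygenase (1.62 and 2.14). The lowest were Cxcr4, a chemokine receptor (-2.32 and -4.31), Tfrc, the transferrin receptor (-2.17 and -1.75), Ndrg1 (-1.57 and -1.41) and Rora (-0.91 and -1.83).

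Of 18 regulators of glucose use, 0 were at least 2-fold higher, 2 lower in the wild type and 3 lower in the deficient cells. Txnip, an arrestin that restrains glucose uptake, read 2.72 in untreated wild-type cells, 0.49 in LPS-treated wild-type cells, 3.40 in untreated CD163-deficient cells and 0.47 in LPS-treated CD163-deficient cells. Its difference was -2.23 and -2.93. Myc differed by -1.04 and -1.30, and Irs2, an insulin receptor substrate, by -0.42 and -1.33. Of 14 glycogen genes, 2 were higher and 2 lower past 2-fold in each genotype. Ppp1r3b, which targets a phosphatase to glycogen, was higher by 2.01 and 2.48 and Gys1, glycogen synthase, by 1.1 and 1.15, while Phka2 (-1.98 and -1.72) and Gyg (-1.36 and -1.43) were lower.

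Sugar entry by other routes and other isozymes were read in the same way. Of 12 further glucose transporters and sugar kinases compared, 0 were at least 2-fold higher and 2 (16.7%) lower in each genotype. These were Khk, the fructose kinase (-1.86 and -1.75), and Slc2a8 (-1.59 and -1.32). Of 15 other glycolytic isozymes and side enzymes, Pgm2l1 was lower past 2-fold in both genotypes (-1.12 and -1.13). Pgk2, an isozyme of sperm, was not detected in wild type without LPS and is counted higher there by its bound. Of 8 gluconeogenic genes, Pcx, pyruvate carboxylase, was higher by 1.37 and 1.85, and Pck1 differed by -2.05 in wild type and was detected on neither array of the deficient cells.

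Downstream, no gene of 12 in the pentose phosphate pathway reached 2-fold with LPS in either genotype, with medians of 0.12 and 0.0025. Of 33 genes of pyruvate entry and the tricarboxylic acid cycle, 0 were higher and 2 lower past 2-fold in wild type, and 1 and 3 in CD163-deficient cells. Pdp1, the phosphatase that undoes the action of the kinases above, differed by -1.26 and -1.54 and Pdk2 by -1.07 and -1.08, while Idh1 differed by -0.68 and -1.76 and Me1 was higher by 0.59 and 1.16. Of 43 respiratory chain genes, Cycs (cytochrome c) alone was past 2-fold, higher by 1.20 and 1.62. Among 8 monocarboxylate transport partners, Slc16a13 was higher by 1.12 in wild type and differed by -0.12 in CD163-deficient cells.

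Markers of some other cells differed with LPS as well. Of 11 mesothelial and fibroblast markers, 10 were lower with LPS in both genotypes, the median going from -2.47 to -3.91 in the wild type and from -2.48 to -3.72 in CD163-deficient cells. Their log2 summed signal, which Col1a1 led, was 5.17 and 5.24 in the wild type and 4.75 and 4.60 in the deficient cells. The 8 neutrophil markers had log2 summed signals of 1.73 and 4.20 in the wild type and 1.52 and 4.39 in the deficient cells, without and with LPS, and 7 of the 8 (all but Ngp) were detected on every array. S100a8, at 1.51 and 3.98 in the wild type and 1.23 and 4.17 in the deficient cells, led that sum. The neutrophil list itself was split. Of the 7 markers compared, 4 were higher and 3 lower with LPS in wild type (median 0.04). In CD163-deficient cells 3 were higher and 4 lower (median -0.19), and 3 were at least 2-fold higher in each genotype. Of 4 eosinophil markers 2 were at least 2-fold lower in both genotypes, Ccr3 (-1.15 and -1.15) and Siglec5 (-2.43 and -2.43). In all, 3 of the 4 were lower and 1 higher in the wild type, and 2 were lower and 2 higher in the deficient cells. The log2 summed signal of the 4 was 0.53 and -1.28 in the wild type and 0.26 and -1.36 in the deficient cells. The summed signal of 6 dendritic cell markers stayed between 5.71 and 5.92 and came mostly from Siglech. Median levels of B cell, T or NK cell, mast cell and erythroid markers lay between -2.35 and -5.42 on all arrays. Their log2 summed signals were 1.06 to 1.49 (B cell), 2.30 to 2.43 (T or NK cell), -0.34 to -0.18 (mast cell) and -1.15 to -0.84 (erythroid). On each array 2 of the 9 T or NK cell markers were above the 75th percentile. Fewer cells of a type and less RNA per cell cannot be told apart in these bulk samples, and the part of other cells in the differences of Aldoc, Ldhb or any other gene was not tested.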

How the data were processed

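RNA from 4 cultures was labelled with Cy3 and hybridised to 1 Agilent array each. Per the file headers, the authors extracted the scans with Feature Extraction 10.7.1.1. The version in the submitters' processing notes is 9.5.1.1. The deposited intensity per spot had the background removed within the array and no normalization between arrays. The deposited value table holds intensities with a median of 175.3 in each column, and it differed from quantile-normalized signals by a median of at most 0.00737 (log2). Its scale was read from this comparison. Probe positions on mm9 come from the arrays' annotation.

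Of 43020 spots and 39429 probes, control and outlier spots were left out, the log2 signal of each array was lowered by its 75th percentile, and spots of a probe were averaged. Detection of a probe asked for 50% or more of its spots well above background. A gene was compared when detected on at least 1 array of a pair (all 4 for the LPS response difference). Where 1 array of a pair detected it, the 2-fold counts used a bound, a step added after a first count without it, which among the 33 genes touches Pdk4 alone. Medians used measured differences. With 1 array per group no test was made.

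Named genes were those at least 2-fold apart in any comparison, the brightest of each step, and up to 3 genes per direction of each further list. The genes and lists were chosen with earlier results of these data known. Promoters came from the RefSeq table of GRCm38.p6, and gene names of the arrays were kept. The counting steps were tested on simulated data. The alternatives were normexp (limma 3.58.1, R 4.3.3, offset 50), quantile normalization, each array scaled to its detected probes' median, the value table, the mean of all probes, detection on every array compared, no detection filter, a level of at least -2, and, chosen after probe positions were seen, the brightest probe on the gene's own chromosome. Python 3.11.15, numpy 2.4.6, pandas 2.3.3 and matplotlib 3.10.9 were used.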

Additional observations from a re-analysis of the deposited data

Results flagged for a closer look

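For 5 genes the LPS difference was positive in one genotype and negative in the other. This count has no share over all genes beside it. The response of CD163-deficient cells minus that of wild type was 0.34 for Gpi1, 0.30 for Pfkp, 0.55 for Aldoa, -1.24 for Egln1 and -0.79 for Vegfa. With 1 array per group the difference was not tested. The values of Gpi1 and Pfkp are near the median of the reference genes (0.32) and that of Aldoa is above it. The wild-type sign of all 3 turned when arrays were scaled to the median of detected probes. That of Pfkp also turned with normexp, and that of Aldoa with quantile normalization and the value table. In deficient cells the sign of Gpi1 turned with that scaling, quantile normalization and the value table. All 3 probes of Gpi1 and both of Pfkp gave the same signs. The second probe of Vegfa was higher with LPS in both genotypes. Egln1 has 1 dim probe.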

How the results depend on the processing

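A median was taken as moved when it shifted by more than 0.15 (log2), the noise of a difference between spots within arrays, and a count when it changed by over 1.5 times. The LPS median in wild type (0.59) was 0.35 with normexp, 0.88 with scaling to the median of detected probes and 0.33 with a level of at least -2. With that scaling, 11 genes were at least 2-fold higher and 2 lower in wild type (7 and 4 otherwise) and 4 lower in CD163-deficient cells (2 otherwise), and the genotype medians were 0.17 without LPS and -0.18 with LPS. Over all genes it gave 10.5% higher and 2.98% lower in wild type and 7.17% lower in CD163-deficient cells. The genotype medians of all genes were then 0.12 without LPS and -0.25 with LPS. The count higher in CD163-deficient cells without LPS (1) was 0 with normexp and 0 with a level of at least -2, and the count lower with LPS (0) was 1 with no detection filter. The median difference of LPS responses (0.21, all genes 0.08) was 0.035 (all genes 0.047) with quantile normalization, 0.033 (0.044) with the value table and -0.23 (-0.35) with scaling to the median of detected probes. Its count lower (1) was 0 with normexp, 0 with a level of at least -2, 2 with scaling to the median of detected probes and 2 with no detection filter. The causes were not tested. The other 117 values of medians and counts, the added alternative among them, did not move. Of the differences of single genes past 2-fold recomputed under each setting, 34 values moved and 186 did not, and the direction of none of these turned.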
